A study of Mus musculus with 12 samples.

Results

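*Prox1*, *Fibcd1*, *Lct*, *Zbtb20*, *Dsp*, *Tdo2*, *Wfs1* and *Calb1* are 8 genes that are enriched in the mouse hippocampus, and their RNA was followed in bulk RNAseq libraries labelled as cortex. They were chosen by name out of 36047 genes in the deposited table, as a check of what the dissected tissue held, after 2 WT libraries of 4 months were already known to stand out in hippocampal genes. Their levels at 4 months are therefore given as a description, and test counts given for that age are not read as results.

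The hippocampus lies directly under the neocortex, and both are removed from the same face of the brain. Its dentate gyrus is filled with granule cells, and its CA fields hold pyramidal neurons that pass signals from CA3 to CA1. *Prox1* encodes a homeodomain factor that maintains granule cell identity, and *Lct* (lactase), *Dsp* (desmoplakin of desmosomes) and *Tdo2* (tryptophan 2,3-dioxygenase) are used as granule cell markers. *Fibcd1*, a membrane receptor for acetylated sugars, marks CA1, and the zinc finger factor ZBTB20 specifies CA1 neurons and is present in granule cells and astrocytes. *Wfs1* (wolframin of the endoplasmic reticulum) and *Calb1* (the calcium buffer calbindin) are strong in CA1 or granule cells but are also transcribed in neocortical and striatal neurons.

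The study sequenced cortex in 3 WT and 3 *Gde2*KO libraries at 4 months and 3 WT and 3 *Gde2*KO libraries at 19 months, 12 in all, and used male and female mice without giving the sex behind each library. The libraries of 19 months came from 3 animals per genotype. For those of 4 months the sources used here do not name the animals, so p-values measure the spread between samples, which may be technical. The *Gde2*KO line carries a global null allele of *Gdpd5*, the gene that encodes GDE2, an enzyme of the cell surface that cleaves the GPI anchor of other proteins. The 19-month columns of the table carry no replicate number and are called A, B and C. Values are normalized counts, estimated reads per gene divided by a size factor for the library, or normalized TPM where genes are compared with each other, because TPM takes account of transcript length.

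At 4 months the libraries held 46434270 to 59728494 estimated reads, and at 19 months 3707927 to 44604721. WT library A and *Gde2*KO library A of 19 months were the shallow ones, with 6734479 and 3707927 reads, so that 1 read counted as 4.66 and 8.29 normalized counts. *Gdpd5* (chr7:99381414-99461877) had 684.5, 701.7 and 1199 normalized counts in the 4-month WT libraries and 417.1, 585.2 and 403.0 in the *Gde2*KO libraries. At 19 months it had 1065, 1129 and 952.1 in WT and 440.5, 456.2 and 560.1 in *Gde2*KO. The targeted gene was lower in every *Gde2*KO library of its age, and reads were still assigned to it. At 19 months its fall passed the test (log2 difference −1.11, SE 0.12, adjusted p = 0.0111, limma).

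The label of cortex was set against 10 markers of cortical projection neurons. Their summed level was 7050 and 8963 normalized counts in WT replicates 1 and 2 of 4 months and lay between 19890 and 28280 in the other 10 libraries. These 2 libraries carry the cortex label with less RNA of cortical markers than the others, and the genotype differences of 4 months are also given without them. No cortical marker was at 0 in any library. In bulk tissue, fewer cells of a type and less RNA per cell cannot be told apart.

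All 8 genes were found in the deposited identifiers and in GENCODE on GRCm38. The 3 genes with the widest range of log2 level across the 4-month libraries were *Lct* (chr1:128284756-128328318, minus strand), *Dsp* (chr13:38151294-38198577, plus strand) and *Fibcd1* (chr2:31813290-31846005, minus strand). The 150 bases upstream of the start site of each, from RefSeq on GRCm38.p6, are shown because these genes show the widest contrast between libraries described next. They lie at chr1:128328319-128328468, chr13:38151144-38151293 and chr2:31846006-31846155 and are written 5′ to 3′ on the gene's strand. Capitals mark the E-box CANNTG, the core bound by the basic helix-loop-helix factors, a class active in hippocampal neurons.
Lct: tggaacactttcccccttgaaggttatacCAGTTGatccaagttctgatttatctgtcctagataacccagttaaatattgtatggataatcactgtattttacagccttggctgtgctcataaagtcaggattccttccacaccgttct
Dsp: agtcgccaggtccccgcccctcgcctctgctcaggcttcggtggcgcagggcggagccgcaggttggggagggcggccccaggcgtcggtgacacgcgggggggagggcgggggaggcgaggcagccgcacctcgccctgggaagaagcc
Fibcd1: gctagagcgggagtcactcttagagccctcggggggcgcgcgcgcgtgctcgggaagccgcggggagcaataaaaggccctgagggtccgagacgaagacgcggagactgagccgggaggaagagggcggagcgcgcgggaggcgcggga
The *Lct* sequence was 40% G and C and held 1 E-box, 121 bases before the start site, whereas those of *Dsp* and *Fibcd1* were 77.3% and 71.3% G and C and held 0. All 3 genes were highest in the same 2 libraries, with promoters of different base composition. Over 250 upstream bases, searched on both strands, CANNTG was present in 4 of 8 promoter entries, which belonged to 7 of the genes (50%), and in 66.2% of 32851 mouse promoters. CAGATG was present in 2 of the 8 entries and 14.4% of all promoters, and CAGCTG, the other E-box searched, in 0 of 8 and 13%. Both are contained in CANNTG, and a match describes letters only.

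The remaining genes were *Prox1* (chr1:190118035-190170714), *Tdo2* (chr3:81957090-81976202), *Calb1* (chr4:15881264-15908064), *Wfs1* (chr5:36966104-36989205) and *Zbtb20* (chr16:42875881-43642602). Per length, *Calb1* had the highest level of the 8 in each of the 12 libraries, with 67.3 to 158.8 normalized TPM. *Wfs1* was next in all libraries except WT replicate 1 of 4 months, where *Zbtb20* had 81.9 normalized TPM and *Fibcd1* 49.7 against 47.6 for *Wfs1*. Outside WT replicates 1 and 2 of 4 months, *Dsp* stayed between 0.31 and 1.59 normalized TPM.

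At 4 months, WT replicates 1 and 2 held several times more RNA of 5 of the 8 genes than every other library. The granule cell factor *Prox1* had 3548, 3015 and 603.2 normalized counts in WT replicates 1, 2 and 3 and 716.2, 585.6 and 568.1 in *Gde2*KO replicates 1, 2 and 3. WT replicate 3 lay within the range of the *Gde2*KO libraries, and WT replicates 1 and 2 were both above it. The lower of these, WT replicate 2, was 4.21-fold above the next library.

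*Lct* had 1140, 983.5 and 35.8 normalized counts in WT and 38.2, 30.2 and 54.5 in *Gde2*KO at 4 months. *Dsp* had 1464, 1313 and 82.4 in WT and 66.4, 69.4 and 55.9 in *Gde2*KO. For both, the gap between WT replicates 1 and 2 and the rest was the widest among the 8 genes, 18.0-fold for *Lct* and 15.9-fold for *Dsp* between the second and the third library in order. *Dsp* differed from *Lct* in that WT replicate 3 was also above all *Gde2*KO libraries.

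*Fibcd1*, the CA1 marker, had 4288, 4711 and 363.1 normalized counts in WT and 828.3, 335.4 and 463.2 in *Gde2*KO. *Zbtb20* had 16190, 13130 and 4229 in WT and 3566, 4084 and 2084 in *Gde2*KO. The same 2 WT libraries were highest for the CA1 gene and for the gene shared by CA1 and granule cells. The step to the next library was 5.18-fold for *Fibcd1*, where that library was *Gde2*KO replicate 1, and 3.11-fold for *Zbtb20*, where it was WT replicate 3.

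The other 3 genes did not follow this order. *Tdo2* had 108.8, 140.9 and 21.5 normalized counts in WT and 183.0, 33.0 and 60.7 in *Gde2*KO, with *Gde2*KO replicate 1 highest. *Wfs1* had 3132, 4274 and 2771 in WT and 3779, 2538 and 2931 in *Gde2*KO, a range of 1.68-fold over the 6 libraries. *Calb1* had 4266, 4415 and 4668 in WT and 6593, 4847 and 8364 in *Gde2*KO, and WT replicates 1 and 2 were its lowest libraries. None of these 3 genes showed a gap between WT replicates 1 and 2 and the other libraries.

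**Figure D1:**
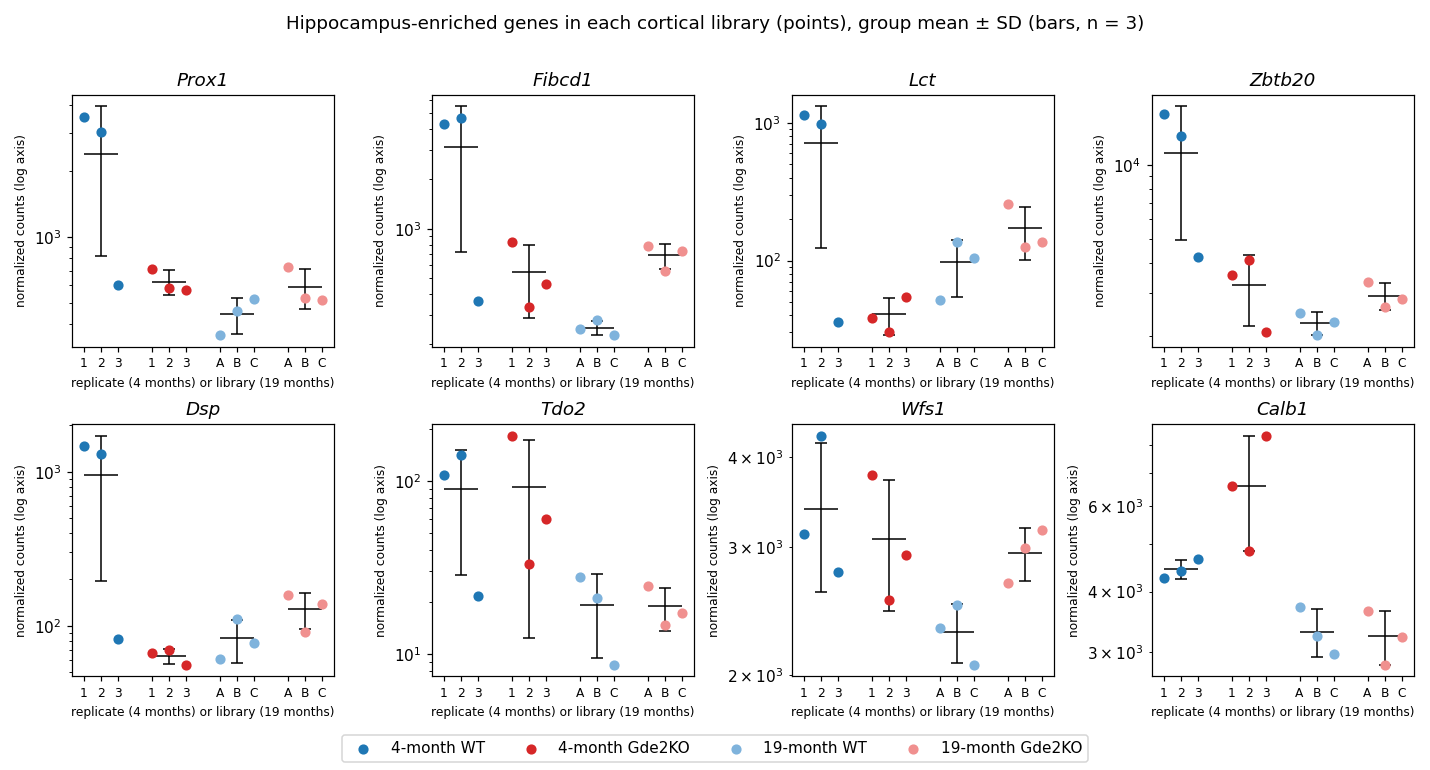
Normalized counts (log axis, one panel per gene) of the 8 hippocampus-enriched genes in each library, by replicate at 4 months and by library letter at 19 months; points are libraries, long bars group means and error bars SD (n = 3). In the panels of *Prox1*, *Fibcd1*, *Lct*, *Zbtb20* and *Dsp*, WT replicates 1 and 2 of 4 months sit above the other 10 libraries, while *Calb1* is highest in *Gde2*KO replicate 3 of 4 months.

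The 2 high libraries are both WT, and the genotype difference at 4 months was negative for 6 of the 8 genes. The log2 difference, *Gde2*KO minus WT, was −3.09 (SE 1.18) for *Lct*, −3.08 (SE 0.98) for *Dsp*, −1.94 (SE 0.91) for *Fibcd1*, −1.63 (SE 0.49) for *Zbtb20* and −1.59 (SE 0.60) for *Prox1*. It was −0.13 for *Wfs1*, 0.53 for *Calb1* and 0.05 for *Tdo2*, which turned to −0.04 when the libraries were rescaled by TMM factors. The median of the 8 was −1.61, and that of all 19035 tested genes was 0.11. Within WT the SD reached 83.0% of the mean for *Lct* and 76.8% for *Fibcd1*, against 30.2% and 47.2% within *Gde2*KO.

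Calls in limma needed both an adjusted p below 0.1 and a log2 difference beyond 0.721, the fold limit being the study's 0.5 on the natural log scale. At 4 months 0 of the 8 genes were called, against 0.126% of all genes, and 5 of 8 had an unadjusted p under 0.05, against 10.6% of all genes. *Calb1* was higher in every *Gde2*KO library than in any WT library, which held for 11.1% of all genes, and *Dsp* and *Zbtb20* were lower in every *Gde2*KO library, which held for 4.26%. These counts come from the levels in view when the genes were chosen, and nothing is read from them. Without WT replicate 3, which left WT replicates 1 and 2 as the only WT libraries, 5 of the 8 genes were called. Those libraries were known to be high when the genes were chosen, so nothing is read from this count either. That setting also called far more genes over the whole table than the main fit, as given below. Without WT replicates 1 and 2, where the single remaining WT library is assumed to vary like the *Gde2*KO group, 0 were called and the log2 difference was 0.04 for *Prox1*, 0.48 for *Fibcd1*, 0.15 for *Lct*, −0.44 for *Zbtb20*, −0.37 for *Dsp*, 1.71 for *Tdo2*, 0.13 for *Wfs1* and 0.46 for *Calb1*.

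Hippocampal genes outside the 8 were taken from written lists of the dentate gyrus and the CA fields, of which 23 of 24 were tested. WT replicates 1 and 2 were the 2 highest libraries of 4 months for 16 of the 23 (69.6%) and for 12.8% of all tested genes. By field they were highest for 6 of 9 dentate gyrus genes, 4 of 6 CA3 genes, 2 of 4 CA2 genes and 4 of 4 CA1 genes. Genes of every field were among them, and these lists, too, were written with the order of the libraries known.

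Among granule cell genes, *C1ql2*, a secreted synaptic organizer, had 2592, 1819 and 52.6 normalized counts in WT and 147.2, 52.9 and 98.0 in *Gde2*KO at 4 months. WT replicates 1 and 2 were the 2 highest libraries, as for *Lct* and *Dsp*. *Ntf3*, a neurotrophin, had 70.6, 177.8 and 23.3 in WT against 50.7, 25.4 and 88.4 in *Gde2*KO, with WT replicate 2 highest and *Gde2*KO replicate 3 next. *Plk5*, a polo-like kinase, ran the other way, with 276.1 and 545.6 in WT replicates 1 and 2 and 813.2 to 1011 in the other 4 libraries.

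Among CA3 genes, *Iyd*, an iodotyrosine deiodinase, had 188.9, 144.6 and 1.79 normalized counts in WT and 23.8, 2.06 and 4.83 in *Gde2*KO. *Grik4*, a kainate receptor subunit, had 2192, 1702 and 771.6 in WT and 874.7, 701.1 and 694.3 in *Gde2*KO, and *Galnt3*, a glycosyltransferase, had 174.4 and 146.4 in WT replicates 1 and 2 and 42.4 to 78.0 in the other 4. All 3 were highest in WT replicates 1 and 2. *Bok*, a BCL2 family protein, was highest in WT replicate 1 with 2309, but its next library was *Gde2*KO replicate 3 with 1626.

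Among CA2 genes, *Rgs14*, which restrains plasticity in CA2 neurons, had 4080, 3015 and 1562 normalized counts in WT and 1984, 1627 and 2216 in *Gde2*KO. *Amigo2*, an adhesion protein, had 888.8 and 724.6 in WT replicates 1 and 2 and 229.9 to 377.8 in the other 4 libraries. *Cacng5*, an auxiliary subunit of AMPA receptors, and the kinase gene *Map3k15* did not share this order. *Cacng5* had 263.8 and 213.5 in WT replicates 1 and 2 and 293.5 to 360.9 in the other 4, and *Map3k15* had 49.1 to 74.0 over all 6. *Avpr1b*, a vasopressin receptor of CA2, was too low to be tested, with 17.3 and 15.7 in WT replicates 1 and 2 and 0 to 3.44 in the other 4.

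Among CA1 genes, *Lefty1*, a secreted antagonist of Nodal, had 353.7, 283.6 and 15.5 normalized counts in WT and 30.7, 22.7 and 46.9 in *Gde2*KO. *Gpr161*, a receptor of the primary cilium, had 3389, 3277 and 421.8 in WT and 595.3, 356.2 and 455.0 in *Gde2*KO. *Man1a*, a mannosidase of the Golgi, had 3676 and 2892 in WT replicates 1 and 2 and 964.5 to 1235 in the other 4, and *Pou3f1*, a POU factor, had 2333 and 2361 against 1082 to 1366. All CA1 genes tested had the same 2 highest libraries as *Fibcd1*.

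Genes of cortex and striatum stood at the opposite end in the same 2 libraries. WT replicates 1 and 2 were the lowest libraries for 8 of 10 cortical projection neuron genes, 11 of 11 striatal neuron genes and 5 of 5 oligodendrocyte genes, and for 22.1% of all tested genes. *Rspo1*, a secreted Wnt agonist, had 19.5 and 36.7 normalized counts in WT replicates 1 and 2 against 382.2 to 529.5 in the other 4, *Lamp5*, a membrane protein of cortical neurons, had 717.2 and 1079 against 5027 to 9308, and *Foxp2*, a factor of deep layers and striatum, had 158.6 and 196.2 against 1016 to 1247. *Fezf2*, a deep-layer factor named after its values were seen, was an exception, with 1473 and 1547 in WT replicates 1 and 2 and 658.1 to 1236 in the other 4. The striatal sum was 8190 and 6274 in these libraries and 35800 to 95590 in the other 4 of 4 months, and at 19 months it was 9168 to 25280.

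Striatal genes named by the same rule included *Adora2a*, the adenosine receptor of the indirect pathway, with 101.6 and 78.0 normalized counts in WT replicates 1 and 2 and 1206 to 4512 in the other 4. The developmental factors *Six3*, with 14.1 and 14.1 against 220.8 to 640.8, and *Isl1*, with 4.33 and 4.23 against 72.5 to 167.7, repeated that order. *Gfap*, the filament of reactive and of hippocampal astrocytes, had 24550 and 7548 in WT replicates 1 and 2 and 3672 to 4628 in the other 4. Summed levels of the neuron list overlapped, with 183300 and 168900 in WT replicates 1 and 2 and 176000 to 245300 in the other 4. Summed thalamic and choroid plexus lists were lowest in WT replicate 1, with 1020 and 4729. WT replicates 1 and 2 were the 2 lowest libraries for 4 of 6 neuron, 3 of 6 interneuron, 4 of 5 microglia and 3 of 4 endothelial genes. The same held for 1 of 5 astrocyte, 1 of 5 thalamic and 2 of 8 choroid plexus genes, and for 22.1% of all tested genes. They were the 2 highest for 2 of 5 astrocyte, 1 of 6 interneuron, 1 of 5 thalamic and 2 of 8 choroid plexus genes. Over all tested genes that share was 12.8%. The part of each of these tissues in the levels of the 8 genes was not tested.

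**Figure D2:**
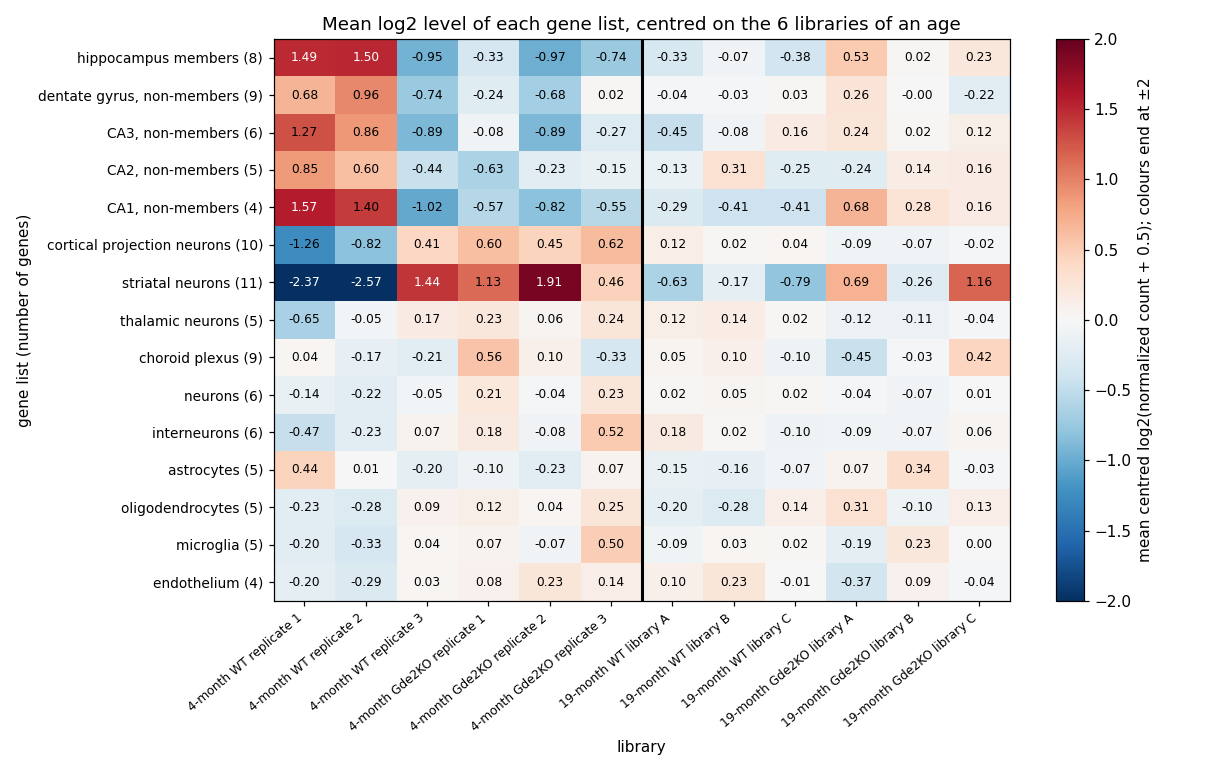
Mean log2(normalized count + 0.5) of each gene list in each of the 12 libraries (columns; rows are lists with their number of genes), centred on the 6 libraries of an age and coloured from blue (low) to red (high). In WT replicates 1 and 2 of 4 months the 8 hippocampus-enriched genes stand at 1.49 and 1.5 and the striatal list at −2.37 and −2.57, and no list of 19 months departs from 0 by more than 1.16.

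The profile of the 8 genes was then used to look for others like it. Each gene's log2 values were centred on the 6 libraries of 4 months and compared with the median profile of the 8, which was 1.64, 1.37 and −1.0 in WT and −0.42, −0.98 and −1.01 in *Gde2*KO. *Prox1* lay closest to that median among the 8, at a root mean square log2 distance of 0.13, followed by *Zbtb20* at 0.39 and *Fibcd1* at 0.51, and *Calb1* was farthest at 1.37. Of 14328 other genes with a mean of at least 50 normalized counts, the nearest were *Slit1*, *Tanc1*, *Htr4*, *Dgkg*, *Nrp1*, *Iqgap2*, *Nr3c2*, *Cd109*, *Pde11a* and *Dnah9*, at distances of 0.107 to 0.185, where the median gene lay at 1.19. *Slit1* and *Nrp1* encode an axon guidance ligand and a guidance receptor, *Htr4* a serotonin receptor and *Nr3c2* the mineralocorticoid receptor.

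*Slit1* had 9016, 6465 and 1258 normalized counts in WT and 1905, 1273 and 1394 in *Gde2*KO at 4 months. *Nr3c2* had 8340, 6360 and 1324 in WT and 1758, 1303 and 1647 in *Gde2*KO. *Pde11a*, a phosphodiesterase, had 798.3, 645.7 and 132.0 in WT and 191.2, 103.2 and 150.5 in *Gde2*KO. None of the 10 genes was on the written hippocampal lists. At 19 months all 10 were tested, each with a log2 difference above 0, where the median of all genes was −0.02. The differences ran from 0.029 (SE 0.227) for *Pde11a* to 0.783 (SE 0.476) for *Htr4*. Of the 10, 0 were called, against 0.0969% of all genes (adjusted p from 0.504 to 0.979, limma). The 10 were picked for 1 shared profile at 4 months, so they do not count as separate results.

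**Figure D3:**
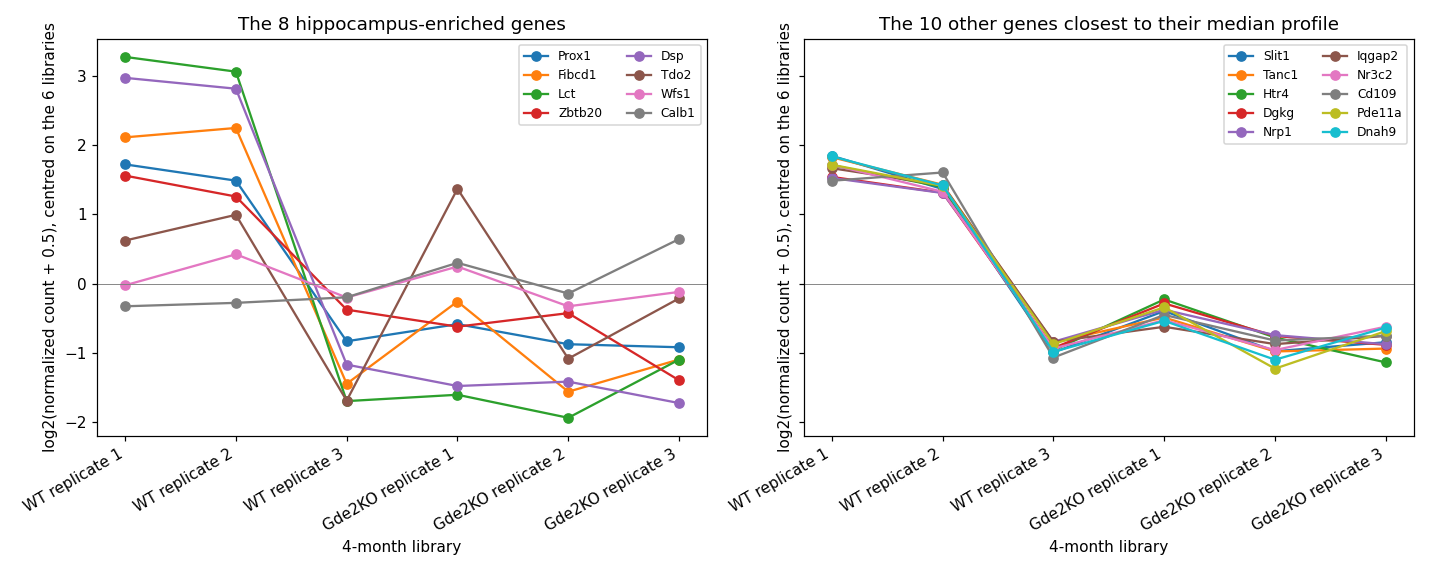
Centred log2(normalized count + 0.5) over the 6 libraries of 4 months for the 8 hippocampus-enriched genes (left) and the 10 other genes nearest to their median profile (right), one line per gene. *Lct* and *Dsp* reach furthest in WT replicates 1 and 2, *Tdo2* peaks in *Gde2*KO replicate 1, *Calb1* runs the other way, and the 10 genes on the right form one narrow band.

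At 19 months no library stood apart in the way of WT replicates 1 and 2 of 4 months, and *Fibcd1* was the 1 gene of the 8 with a called genotype difference, against 0.0969% of all 18583 genes tested. *Fibcd1* had 246.9, 278.6 and 227.8 normalized counts in WT libraries A, B and C and 779.6, 552.0 and 733.2 in *Gde2*KO libraries A, B and C. The lowest *Gde2*KO library was above the highest WT library. The mean was 251.1 ± 25.6 in WT and 688.2 ± 120.3 in *Gde2*KO (SD, n = 3), and the log2 difference was 1.44 (SE 0.15, adjusted p = 0.0111, limma).

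The 19-month *Fibcd1* levels lay within or below those of *Gde2*KO at 4 months, 335.4 to 828.3, and far below the 4288 and 4711 of WT replicates 1 and 2. The count in the shallow *Gde2*KO library A came from 94.0 estimated reads and that in WT library A from 53.0. Without both shallow libraries the log2 difference was 1.34 (adjusted p = 0.0812, limma), still called. The call was lost, with a log2 difference of 1.43, without WT library A (adjusted p = 0.116, limma) and with gene sums of TPM (adjusted p = 0.219, limma), and it was lost without an intensity trend in limma (1.44, adjusted p = 0.288).

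*Zbtb20* had 2499, 2017 and 2278 normalized counts in WT and 3331, 2625 and 2829 in *Gde2*KO at 19 months. *Wfs1* had 2320, 2495 and 2067 in WT and 2679, 2990 and 3169 in *Gde2*KO. With *Fibcd1* these were the 3 of 8 genes whose *Gde2*KO libraries were all above WT, which held for 5.85% of all genes, and 0 of 8 were below in every library, which held for 8.32%. The differences were small and did not pass the test, with log2 values of 0.37 (SE 0.11, adjusted p = 0.607) for *Zbtb20* and 0.36 (SE 0.09, adjusted p = 0.504) for *Wfs1* in limma.

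Granule cell markers overlapped between genotypes at 19 months. *Prox1* had 354.1, 457.2 and 516.9 normalized counts in WT and 729.8, 525.3 and 515.6 in *Gde2*KO (log2 difference 0.41, SE 0.18, adjusted p = 0.711, limma). *Lct* had 51.3, 136.3 and 104.5 in WT and 257.1, 125.7 and 137.3 in *Gde2*KO (0.86, SE 0.40, adjusted p = 0.711), and *Dsp* had 60.6, 110.9 and 77.9 in WT and 157.6, 91.3 and 138.8 in *Gde2*KO (0.64, SE 0.29, adjusted p = 0.711). In all 3 the highest library was the shallow *Gde2*KO library A and the lowest the shallow WT library A. Without WT library A the log2 difference was 0.26 for *Prox1*, 0.46 for *Lct* and 0.44 for *Dsp*, and without *Gde2*KO library A it was 0.25, 0.54 and 0.48. Without both it was 0.10 for *Prox1*, 0.14 for *Lct* and 0.28 for *Dsp*.

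*Tdo2* had 28.0, 21.2 and 8.65 normalized counts in WT and 24.9, 14.7 and 17.2 in *Gde2*KO at 19 months, and *Calb1* had 3709, 3237 and 2979 in WT and 3649, 2830 and 3231 in *Gde2*KO. Neither separated the genotypes, with log2 differences of 0.09 (SE 0.55, adjusted p = 0.971) and −0.03 (SE 0.11, adjusted p = 0.944) in limma. The *Tdo2* level in *Gde2*KO library A stood for 3.0 reads and those in the other 5 libraries for 6.0 to 25.0. Over the 8 genes the log2 difference was above 0 for 7, with a median of 0.39 where the median of all genes was −0.02, and 4 had an unadjusted p under 0.05, against 6.91% of all genes.

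**Figure D4:**
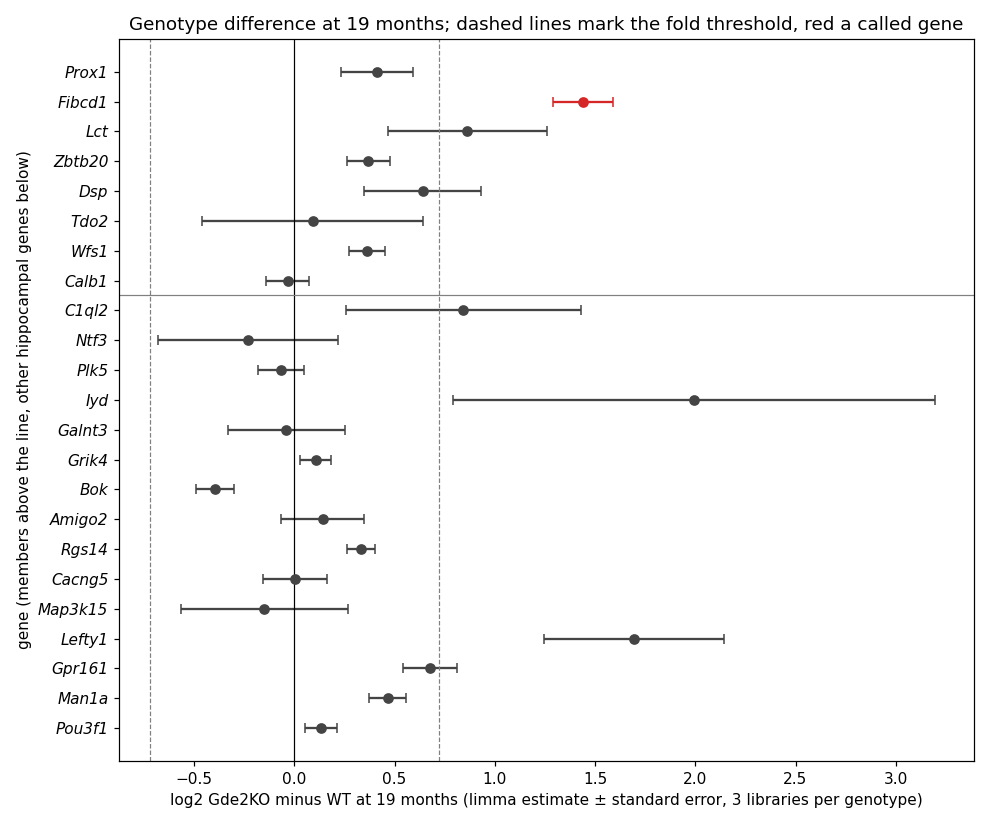
Log2 difference of *Gde2*KO minus WT at 19 months (x axis) with its standard error (bars; limma, 3 libraries per genotype) for the 8 hippocampus-enriched genes above the line and other hippocampal genes below it; dashed lines mark the fold limit of 0.721. *Fibcd1*, in red at 1.44, is the called gene, and *Iyd* and *Lefty1* have larger differences with wider errors.

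The other hippocampal genes gave a mixed picture at 19 months. Of the 23 tested, 13 had a log2 difference above 0, with a median of 0.05. In limma 0 were called and 6 had an unadjusted p under 0.05, against 6.9% of all genes. In the CA1 list all 4 differences were above 0. *Lefty1*, *Gpr161* and *Man1a* were higher in every *Gde2*KO library, which held for 5.85% of all genes. *Lefty1* had 18.6, 17.8 and 18.7 normalized counts in WT and 116.1, 53.3 and 35.9 in *Gde2*KO (log2 difference 1.69, SE 0.45, adjusted p = 0.567), *Gpr161* had a difference of 0.68 (SE 0.13, adjusted p = 0.288) and *Man1a* of 0.47 (SE 0.09, adjusted p = 0.288). The CA1 sums were 2375 to 2684 in WT and 2983 to 3317 in *Gde2*KO.

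The dentate gyrus list did not share that direction, with 3 of 9 differences above 0 and sums of 5017 to 5422 in WT and 4830 to 5281 in *Gde2*KO. In the CA3 list 2 of 6 genes were lower in every *Gde2*KO library, against 8.32% of all genes. They were *Bok* (log2 difference −0.39, SE 0.09, adjusted p = 0.48, limma) and *Ociad2*, named after its values were seen (−0.25, SE 0.09, adjusted p = 0.665). The CA3 sums were 6769 to 6964 in WT and 5766 to 6298 in *Gde2*KO, apart in the opposite direction to CA1. In the CA2 list 1 of 4 tested genes, *Rgs14*, was higher in every *Gde2*KO library (0.33, SE 0.07, adjusted p = 0.351, limma), against 5.85% of all genes. The CA2 sums were 1470 to 1617 in WT and 1735 to 1937 in *Gde2*KO. Beside the *Fibcd1* call, 11 of 11 striatal genes had a log2 difference above 0, with sums of 9168 to 11960 in WT and 11190 to 25280 in *Gde2*KO. The cortical projection neuron sum was 25750 to 28280 in WT and 22750 to 24820 in *Gde2*KO. *Gfap* was 11040 in *Gde2*KO library B and 3838 to 4893 in the other 5 libraries. In limma 0 genes of these or the other cell type lists were called at 19 months. An unadjusted p under 0.05 was found for 8 of 11 striatal genes and 3 of 10 cortical genes, against 6.9% of all genes. The part of these tissues and cells in the *Fibcd1* difference was not tested.

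Set side by side, the ages differed in which libraries were high, and age cannot be told apart from any difference in how the libraries of each age were made. *Fibcd1* in WT spanned 363.1 to 4711 normalized counts at 4 months and 227.8 to 278.6 at 19 months, and in *Gde2*KO it spanned 335.4 to 828.3 and 552.0 to 779.6. *Lct* in *Gde2*KO was 30.2 to 54.5 at 4 months and 125.7 to 257.1 at 19 months, without overlap, and *Dsp* in *Gde2*KO was 55.9 to 69.4 and 91.3 to 157.6. *Calb1* went the other way, from 4847 to 8364 in *Gde2*KO at 4 months to 2830 to 3649 at 19 months. The genotype difference of *Zbtb20* was negative without overlap at 4 months and positive without overlap at 19 months.

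The transcripts that made up each gene were not used to choose the 8 genes, so their shares were tested. At 4 months a share can still follow the gene level where 1 transcript carries it, as for *Zbtb20* below. At 4 months 6 of the 8 had enough transcripts for limma's diffSplice, 0 met the limits for a call, an adjusted p below 0.1 with a change of 10 percentage points, against 0.997% of 12235 genes, and 1, *Wfs1*, had an unadjusted p under 0.05 (adjusted p = 0.383). At 19 months 6 were tested, 0 were called, against 0.171% of 12253 genes, and 0 had an unadjusted p under 0.05. *Fibcd1* has 1 transcript in the table, ENSMUST00000028188.7, and has no share to test.

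*Zbtb20* showed 2 transcripts with different patterns. The protein-coding ENSMUST00000114694.8 had 15660, 12660 and 3910 normalized counts in WT and 3281, 3743 and 1820 in *Gde2*KO at 4 months. The retained-intron ENSMUST00000139491.7, which starts at position 43363464, had 226.9, 266.3 and 246.5 in WT and 240.8, 278.7 and 227.8 in *Gde2*KO. The protein-coding transcript carried the gap between libraries, and the retained-intron transcript was at a like level in all 6. As a share of the gene's TPM, the retained-intron transcript was 8.04% and 12.1% in WT replicates 1 and 2 and 28.3% to 41.9% in the other 4, and the gene's largest share change between genotypes was 19.8 percentage points (adjusted p = 0.776, diffSplice).

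*Prox1* RNA came mainly from ENSMUST00000175916.7, with 94.1% to 98.6% of its normalized counts at 4 months. The gap between libraries was in all 3 *Prox1* transcripts, as ENSMUST00000010319.13 had 79.2 and 69.5 normalized counts in WT replicates 1 and 2 and 2.12 to 25.1 in the other 4, and ENSMUST00000177288.3 had 55.7 and 78.0 against 5.92 to 16.1. *Lct* had its full-length transcript ENSMUST00000073490.6 at 92.1% or more of the gene's TPM in every library of 4 months and at 12% to 34.5% at 19 months. The rest at 19 months was ENSMUST00000162067.1, a retained-intron transcript of chr1:128287572-128292264, with 6.69, 13.9 and 31.7 normalized counts in WT and 63.3, 12.9 and 24.6 in *Gde2*KO, against 0 to 1.22 at 4 months. At 19 months the *Lct* level was in part that of a retained-intron transcript, in both genotypes (adjusted p of the share = 1.0, diffSplice). In normalized counts the full-length transcript was 44.6 to 193.8 at 19 months.

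**Figure D5:**
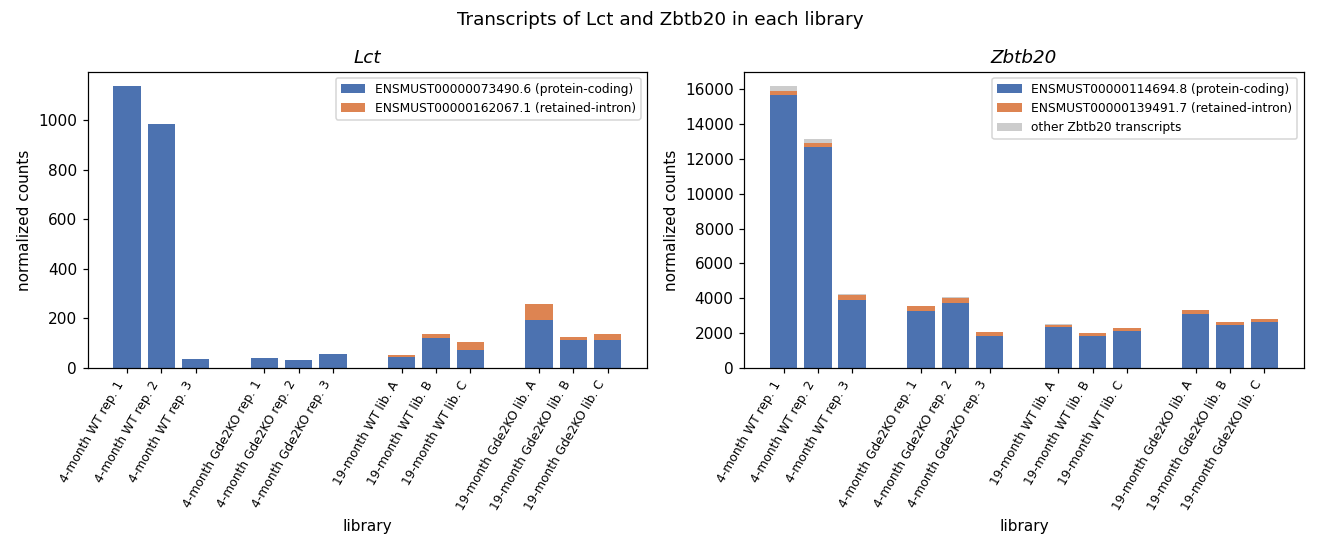
Normalized counts (y axis) of the transcripts of *Lct* (left) and *Zbtb20* (right) in each of the 12 libraries, stacked by transcript. The retained-intron transcript of *Lct* is at 6.69 to 63.3 normalized counts in the 19-month libraries and at most 1.22 in those of 4 months, and that of *Zbtb20* stays between 226.9 and 278.7 in the 4-month libraries while the protein-coding transcript ranges from 1820 to 15660.

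By normalized counts *Dsp* was mainly 2 protein-coding transcripts that end at the same base, whose shared reads are assigned by estimate. In TPM they did not always make up the gene, and another annotated transcript held the rest. In *Gde2*KO replicate 2 of 4 months ENSMUST00000124830.2 held 32.5% of the TPM and ENSMUST00000127906.7 2.86%. ENSMUST00000127906.7 was 66.0%, 54.0% and 49.3% of the gene's TPM in WT and 0%, 50.6% and 34.5% in *Gde2*KO at 19 months, a change of 28.1 percentage points that did not pass the test (adjusted p = 0.979, diffSplice). The share of 0% was in the shallow *Gde2*KO library A, where ENSMUST00000124830.2 held 54.4%, and the other 2 *Gde2*KO libraries spanned the lowest WT value. *Calb1* RNA was nearly evenly split by TPM at 4 months between its coding transcript ENSMUST00000029876.1, at 51.5% to 60.6%, and the retained-intron ENSMUST00000136266.1, at 38.3% to 46.9%. By normalized counts, which are not divided by transcript length, the coding transcript held 90.6% to 93.5% and the retained-intron transcript 6.32% to 9.09%.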

How the data were processed

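Bulk RNAseq of mouse cortex, labelled by genotype and age, was analysed in 12 libraries, 3 per group. The authors ran Kallisto against GRCm38 transcripts and deposited 2 transcript tables of signal values scaled in Sleuth, one of estimated counts and one of TPM, both divided by a size factor per library. A column was assigned to a sample by its label, and 0 columns had none. The columns of 19 months name the genotype without a replicate number, so libraries A, B and C follow column order.

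Transcripts were summed to 36047 genes, and the 1673 transcripts without a gene held 0.541% to 0.605% of a library. The commonest step between low values gave the worth of 1 read and hence the depth. Only 46.7% to 62.9% of genes came out as whole reads (tolerance 0.01), and no count model was used. Low depth adds counting error. A floor of 3 reads stands for 13.98 and 24.88 normalized counts in the shallow libraries and at most 2.54 in the others.

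Genes with 5 normalized counts in 47% of the 6 libraries of an age were tested with limma 3.58.1 in R 4.3.3 on log2(normalized count + 0.5) with an intensity trend, each age apart. Fold changes are on that scale and understate those of low genes. P-values were Benjamini-Hochberg adjusted over all genes, and a gene was called at an adjusted p under 0.1 and 0.5 on the natural log scale, 0.721 in log2. Transcript usage was tested with diffSplice for transcripts averaging 5 normalized counts or more, and a call also needed a change of 10 percentage points in TPM share. Both were run on simulated data with large planted changes and a small spread between libraries. That run checked the code and does not show how small a change could be found in these data.

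The 8 genes and the written lists of markers were chosen with earlier results of these data known. The other genes named were *Gdpd5*, the 4 tested genes of each list with the widest log2 range at 4 months, list genes called at 19 months, and the 10 genes nearest to the median profile of the 8. Some genes that this rule names are not reported here. Lists covered the dentate gyrus, CA3, CA2, CA1, cortical projection, striatal and thalamic neurons, choroid plexus, neurons, interneurons, astrocytes, oligodendrocytes, microglia and endothelium. Alternatives were pseudocounts of 1 and 5, TMM factors, sums of TPM, no filter, no trend, a replicate block, a mean of 20 normalized counts per transcript, a Simes adjustment and libraries left out. The deposited table of sample descriptions was read for the design only. Sequences came from RefSeq on GRCm38.p6 and positions from GENCODE on GRCm38. Python 3.11.15 was used for the tables (pandas 2.3.3, numpy 2.4.6) and for plotting (matplotlib 3.10.9).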

Additional observations from a re-analysis of the deposited data

Results flagged for a closer look

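Of 99 genes compared at both ages, 4 had *Gde2*KO libraries all on one side of WT at 4 months and all on the other side at 19 months, and of the 18040 genes tested at both ages 292 (1.62%) did so. Of the 4, 1 was among the 8 hippocampus-enriched genes. *Zbtb20* had a log2 difference of −1.63 at 4 months and 0.37 at 19 months. The others were *Kl*, the co-receptor for a fibroblast growth factor in choroid plexus, with −1.59 and 0.38, *Tbr1*, a factor of cortical projection neurons, with 1.08 and −0.11, and *Vip*, an interneuron peptide, with 1.27 and −0.38. The difference between the ages was not tested, because the 4-month levels rest on WT replicates 1 and 2 and were known when the genes were chosen. *Zbtb20* had 16190 and 13130 normalized counts in those libraries, *Kl* 707.7 and 598.5, and *Vip* 434.4 and 487.1.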

How the results depend on the processing

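At 4 months the count of called genes among the 8 was 0 under every alternative except the libraries left out in turn, where it was 0 to 5, with 5 without WT replicate 3. That setting called 1510 genes in all, against 24. At 19 months the count was 1, and it was 0 with gene sums of TPM, 0 without an intensity trend and 0 to 1 with each library left out, the 0 being without WT library A. The *Fibcd1* log2 difference stayed between 1.34 and 1.59 over all alternatives, with adjusted p from 0.00485 to 0.288 (limma). The *Calb1* difference at 19 months, −0.03, turned to 0.0197 with sums of TPM and lay between −0.12 and 0.0597 with each library left out, above 0 without WT library A (0.05) and without *Gde2*KO library B. That of *Tdo2*, 0.09, was 1.34 (SE 0.74) with sums of TPM, its largest move, and lay between −0.39 and 0.43 with each library left out, below 0 without WT library C and without *Gde2*KO library A (−0.12). No call for transcript usage among the 8 arose under any alternative run. The cause of these changes was not tested.

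Correlations of deviations between same-numbered WT and *Gde2*KO libraries of 4 months were 0.0596, 0.00709 and −0.0477. Within WT, replicates 1 and 2 stood apart from replicate 3 in several gene lists. These values therefore cannot decide whether replicate numbers pair the samples. With the replicate block 0 of the 8 genes were called, 0 for transcript usage, and 21 genes in all. At 19 months no paired analysis was possible because the columns carry no replicate numbers. The shallow libraries limit *Tdo2* and other low genes at 19 months.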

Other observations

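Genes of other cell types gave the following ranges across the libraries of 4 months. In the astrocyte list the 4 genes of widest log2 range were *Gfap* (2.74), *Aldh1l1* (0.76), *Aqp4* (0.68) and *Slc1a3* (0.41), and in the oligodendrocyte list the first 3 were *Mog* (0.86), *Mbp* (0.59) and *Cnp* (0.44). In the microglia list the 4 genes were *C1qa* (1.14), *P2ry12* (1.08), *Tmem119* (0.90) and *Csf1r* (0.62), and in the endothelial list *Cldn5* (0.92), *Slco1a4* (0.63), *Flt1* (0.54) and *Pecam1* (0.44). Among interneuron genes they were *Vip* (2.56), *Pvalb* (2.23), *Sst* (1.09) and *Adarb2* (0.85), and among general neuronal genes *Snap25* (0.99), *Slc17a7* (0.93), *Rbfox3* (0.62) and *Gad1* (0.61). The median range over all tested genes was 0.77.

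Among thalamic genes the widest were *Tnnt1* (2.25), *Slc17a6* (1.94), *Prkcd* (1.34) and *Lef1* (0.78). The choroid plexus list held *Ttr* (7.83), the transthyretin of the cerebrospinal fluid, with *Gde2*KO replicate 1 highest and *Gde2*KO replicate 3 lowest, and *Clic6* (3.66), *Otx2* (3.30) and *Kl* (2.55). *Ttr*, *Clic6* and *Otx2* were highest in libraries other than WT replicates 1 and 2, while these were the 2 highest libraries for 2 of 8 tested choroid plexus genes (25%, against 12.8% of all tested genes), among them *Kl*.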
